A study of Bos taurus with 16 samples.

Results

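Translation initiation factors were examined in single bovine oocytes and embryos that developed in vivo, as all loci whose name begins with EIF and a digit. Names that end in Y, which mark 2 further loci, were left out. The rule found 59 loci of 27393 in all, with 56 different names, since EIF4E1B, EIF2S3 and EIF1AX each stand at 2 loci. The rule used names and no measured value, although earlier results of these data were known when it was chosen.

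Initiation begins when the cap-binding protein eIF4E, the scaffold eIF4G and the RNA helicase eIF4A, together called eIF4F, assemble on the capped end of an mRNA. eIF2 brings the initiator methionyl-tRNA to the small ribosomal subunit, on which eIF3 is the largest factor. eIF2B reloads eIF2 with GTP, and kinases that phosphorylate eIF2 block this step. Oocytes and cleaving embryos translate mRNAs stored during oocyte growth until embryonic genome activation (EGA), and vertebrate oocytes hold eIF4E1B, a relative of eIF4E with a weaker grip on the cap.

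The samples were Bos taurus and comprised 2 single mature oocytes (MII) and 2 single embryos at each of the 2-, 4-, 8- and 16-cell stages (2C to 16C), the early morula (EM), the compact morula (CM) and the blastocyst (BL). None carried a treatment or an engineered allele. Breed and sire are not given in the sources used here. EGA of embryos developed in vivo is placed between the 4- and 8-cell stages, so 6 samples (MII, 2C and 4C) stood before it and 10 (8C to BL) after it.

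The RNA of each oocyte or embryo was amplified in 2 rounds before the library was made. Between 607672 and 3379426 reads per sample lay on the loci, so the floor of 3 reads taken as detection corresponded to between 0.888 and 4.94 CPM (reads of a locus per 1000000 reads of the sample). Levels below are CPM. They are not divided by gene length, so levels are compared between samples for 1 gene and not between genes. The reads measure shares of the RNA of a sample, so fewer cells of a type and less RNA per cell cannot be told apart. Differences are log2 changes ± SE from limma, fitted to log2(deposited value + 1) with Benjamini-Hochberg adjustment over all loci fitted. The added 1 understates the change of genes with few reads.

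The library labelled 8C replicate 2 stood apart in its oocyte markers. The summed level of 10 oocyte marker genes was 1524 CPM in it and 28.5 CPM in 8C replicate 1, against 3146 to 10293 CPM before EGA and 7.86 to 60.5 CPM in the other 8 samples after it. Most of the sum in 8C replicate 2 was H1FOO at XLOC_037459, with 1347 CPM there and 21.0 CPM in 8C replicate 1. Of the other markers ZP2 had 18.3 and 3.71 CPM in these libraries, against 188 to 405 CPM before EGA. BMP15 was listed at 0 in every sample. The summed level of 8 blastocyst markers was 1274 and 1290 CPM in the BL samples and 12.6 to 24.3 CPM before EGA. Most of it in BL was KRT8 (525 and 503 CPM) and KRT18 (388 and 367 CPM). CDX2 never reached 3 reads, and SOX2 had 0.982 and 1.47 CPM in BL, within its 0.438 to 6.15 CPM before EGA. The sum also differed between replicates, with 114 and 466 CPM in 16C replicates 1 and 2 and 181 and 47.8 CPM in CM replicates 1 and 2. In 16C replicate 2, KRT8 had 102 CPM and KRT18 114 CPM, against 3.86 and 11.6 CPM in 16C replicate 1. Markers of cumulus and granulosa cells, 8 genes at 10 loci, summed to between 79.3 and 323 CPM before EGA and to between 0 and 32.7 CPM after it. Most of that sum was HAS2, with 68.7 to 298 CPM before EGA. AMH was at 0 throughout, and FST, INHBA and TNFAIP6 never reached 3 reads. Sperm markers were at 0 before EGA and reached at most 3.29 CPM after it, and blood markers were at 0 except for 4.95 CPM in 8C replicate 1. The part of these markers in the results was not tested.

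Reads on the initiation factor loci were widespread. Of the 59 loci, 37 (62.7%) had reads in all 16 samples, against 16.1% of all loci. EIF5A2 and EIF4H were listed at 0 in every sample, and EIF2C3 never reached 3 reads. EIF4H lies in a run of 2578 neighbouring loci that are all at 0, as do the oocyte marker BMP15 and the helicase gene DDX3X, and for loci in this run a lack of reads and a part of the table without values cannot be told apart. The summed level of the loci ranged from 7022 CPM in BL replicate 2 to 23714 CPM in 4C replicate 2. Of the 57 loci with reads, 26 had their highest stage mean in EM, 13 in BL, 6 in 8C, 4 in 16C, and 2 each in MII, 2C, 4C and CM. These are 51 loci (89.5%) with the highest mean at one of the 5 stages after EGA, against 64.1% of all loci with reads, and the EM count is 45.6% against 17.5% of all. The counts include loci with 3 to 8 reads in all.

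More initiation factor loci were higher than lower after EGA. Of the 51 loci that passed the filter on low counts, 26 were higher after EGA, against 36.9% of all 6910 loci tested. Lower after EGA were 6 loci, against 29.9% of all. The median log2 change was 0.89 over these 51 loci and 0.23 over all loci. Scaling by TMM factors or by total reads moved the median of all loci to 0.34 and 0.67. Changes of initiation factor loci shifted upward as well, such as EIF4E from -0.26 to 0.22 and EIF3E from -0.21 to 0.27 under total reads. The median of the initiation factor loci under these scalings is not given here. The scaled medians of all loci are therefore not to be compared with 0.89. The loci that fell were both EIF4E1B loci, EIF4E3, EIF3A, EIF3M and EIF5B. Each of these kept its call and its direction in all 26 alternatives tried, and so did 23 of the 26 that rose. The others were EIF2B4, EIF4A3 and EIF5. In CPM, 15 of the 51 loci were higher after EGA without any overlap between the periods, against 18.4% of all loci, and 3 (EIF3M, EIF5B and EIF4E1B at XLOC_063138) were lower without overlap, against 9.7%. These counts are a description, since a locus that passed the filter only because it was high in 1 period had to differ between the periods. Among the 26 loci called higher, 21 reached the filter's limit of 7.42 CPM in 6 or more samples after EGA but not in all 6 before it. The adjusted p given below for these 21 loci at EGA are a description as well. Over all loci with reads, without a filter, 27 of 57 initiation factor loci were higher (18.4% of all 18318 loci) and 7 lower (20.2% of all). In CPM, 15 of these 57 were higher without overlap (7.59% of all) and 3 lower (5.07% of all).

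**Figure D1:**
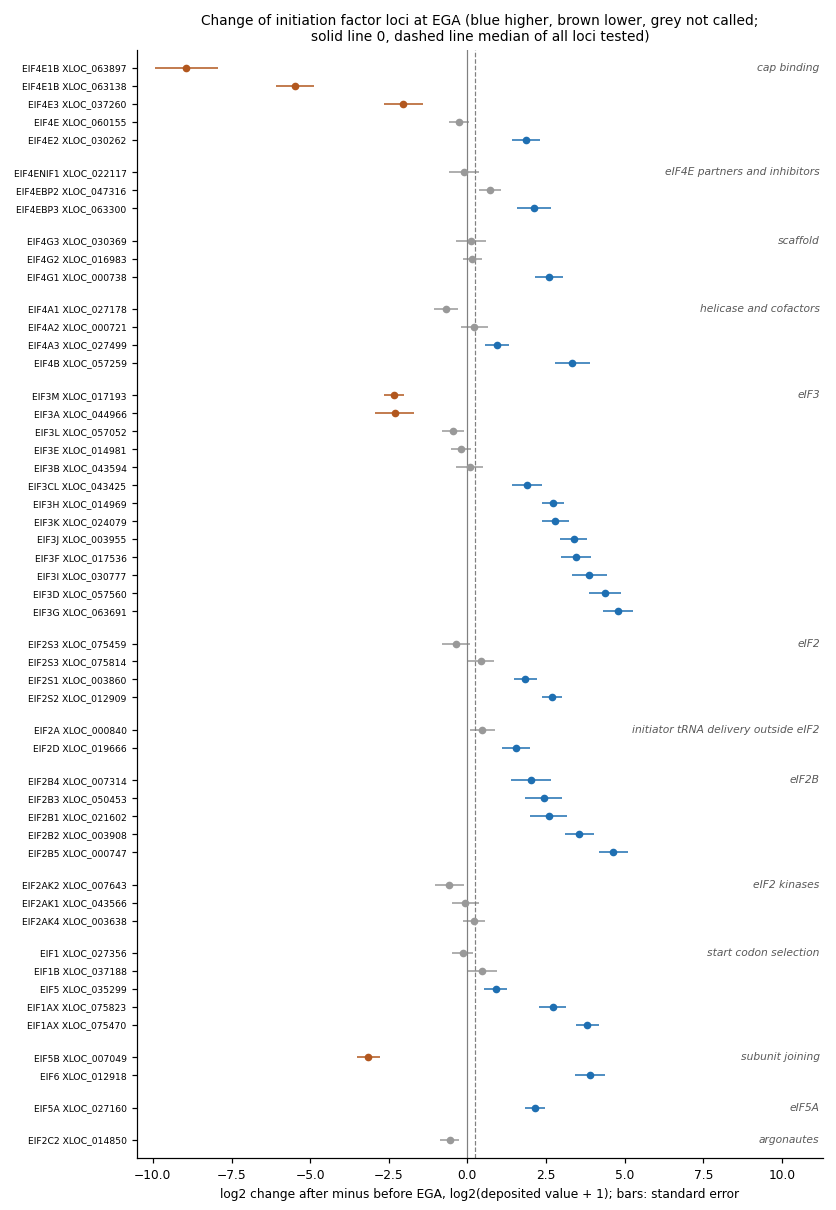
Log2 change ± SE (points and bars, x axis, log2 of deposited value + 1, after minus before EGA) of the 51 initiation factor loci tested, grouped by role on the y axis. Blue marks 26 loci that were higher after EGA, brown 6 that were lower and grey 19 that did not pass the test, and the dashed line marks the median of all loci tested (0.23).

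With the 8 stages as separate groups, 38 of 53 loci changed with stage, against 66.7% of all 9670 loci tested. Between neighbouring spans of development the calls were fewer. From MII to 4C, 7 loci were higher (6.48% of all loci) and 2 lower (2.19% of all). From 4C to 8C, 19 were higher (17.7% of all) and 6 lower (19.1% of all). From 8C to BL none was higher by limma, edgeR or DESeq2 (6.44% of all by limma), with 2 (EIF2AK3 and EIF4E3) at an unadjusted p under 0.05, and 4 were lower (3.63% of all). The 3 steps share samples, and each rests on 2 samples per stage.

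Several of these counts rested on single libraries. Without 4C replicate 1 or without 4C replicate 2 the count from MII to 4C was 0 in both directions. Without MII replicate 1 it was 4 higher and 1 lower, and without MII replicate 2 it was 2 higher and 0 lower. Scaling by total reads turned this split into 12 higher and 0 lower. From 4C to 8C, 12 rose without 4C replicate 2, and 2 fell without 4C replicate 1, without 4C replicate 2 or without 8C replicate 1. From 8C to BL, 1 fell without 8C replicate 2, without BL replicate 1 or without BL replicate 2. Fitted with the compared stages alone, 8 of 9 calls from MII to 4C, 13 of 25 from 4C to 8C and all 4 from 8C to BL were lost. From MII to 4C only EIF2B4 kept its call in that fit. Only the 4C to 8C step held calls kept in all 25 alternatives, namely rises of EIF1AX (XLOC_075470), EIF2B5, EIF3D, EIF3G, EIF3H, EIF5A and EIF6 and falls of EIF3M and EIF5B.

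Among the loci of cap-binding proteins, both named EIF4E1B and EIF4E3 fell at EGA, EIF4E2 rose and EIF4E did not pass the test. At its main locus (XLOC_063897) EIF4E1B had 6109 and 1529 CPM in the MII samples, 2127 and 4657 CPM in 2C, and 6657 and 7551 CPM in 4C. The 8C samples held 12.4 CPM in replicate 1 and 2398 CPM in replicate 2, and the other samples after EGA held between 1.66 and 13.3 CPM. All 6 samples before EGA and 8C replicate 2 were therefore high, and the remaining 9 were low. The log2 change was -8.94 ± 1.01 (adjusted p 1.4e-07), and over the alternatives it ranged from -9.98 without both 8C samples to -4.66 with edgeR and -4.63 with DESeq2 (adjusted p at most 0.00631). The step from 4C to 8C gave -5.33 ± 1.48 (adjusted p 0.0116), a call lost without 4C replicate 1, 4C replicate 2 or 8C replicate 1 and with edgeR and DESeq2 (adjusted p up to 0.233). That call was also lost with 4C and 8C fitted alone. The change was -8.95 without 8C replicate 2 and -1.72 without 8C replicate 1. The step from 8C to BL gave -5.09 ± 1.48 (adjusted p 0.0397), which rested on 8C replicate 2 and was lost in 16 of 25 alternatives (adjusted p up to 0.453), 13 of them with 1 sample left out. It was -8.71 without 8C replicate 1 and -1.48 without 8C replicate 2.

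The second locus named EIF4E1B (XLOC_063138) followed the same course with fewer reads. It had 41.7 and 22.8 CPM in MII, 47.3 and 98.2 CPM in 2C and 54.9 and 59.0 CPM in 4C. After EGA it was at 0 in 7 of 10 samples, with 14.4 CPM in 8C replicate 2, 0.773 CPM in 16C replicate 1 and 4.40 CPM in BL replicate 2. The periods did not overlap, and the log2 change was -5.48 ± 0.59 (adjusted p 7.3e-08), or -3.67 with a pseudocount of 5. From 4C to 8C it was -4.16 ± 1.14 (adjusted p 0.0108), lost without either 4C sample or 8C replicate 1 and with DESeq2 (adjusted p up to 0.157), with -6.26 without 8C replicate 2 and -2.07 without 8C replicate 1. The call from 4C to 8C was also lost with these stages fitted alone. How reads were divided between loci of the same name is not given in the sources used here, so the split between them is uncertain.

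EIF4E, the general cap-binding protein, did not follow. It ranged from 47.3 to 193 CPM (median 95.8) before EGA and from 82.9 to 188 CPM (median 98.5) after it. The periods overlapped and the log2 change was -0.26 ± 0.31 (adjusted p 0.471), with the sign turned to 0.22 under scaling by total reads. Together the EIF4E1B loci took between 95.4% and 99.0% of the reads on EIF4E, EIF4E1B, EIF4E2 and EIF4E3 in the 6 samples before EGA. In 8C replicate 1 the share was 8.13% (exact 95% interval 3.97 to 14.4), in 8C replicate 2 it was 94.0% (93.0 to 94.8), and in the other samples after EGA it lay between 0.564% and 8.78%. These shares count reads without regard to gene length, and these intervals, like those of ratios of pooled reads below, cover counting error only, which leaves out amplification and the spread between samples.

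EIF4E2, also called 4EHP, which binds caps without recruiting eIF4G, moved the other way. It had between 2.19 and 16.3 CPM (median 7.50) before EGA and between 10.04 and 93.6 CPM (median 36.9) after it. The lowest after EGA, 10.04 CPM in 16C replicate 1, lay within the range before it. EIF4E2 rose by 1.86 ± 0.44 on the log2 scale (adjusted p 0.00087). EIF4E3, a further family member, stood at 3.33 to 14.6 CPM before EGA and at 0 to 20.6 CPM after it, so the periods overlapped widely. Its levels were 0 and 1.92 CPM in 8C and 20.6 and 5.87 CPM in BL. It fell by 2.04 ± 0.62 (adjusted p 0.00665), and with only 2 reads in the 8C samples its ratio of 8C to 4C reads was 0.0949 (95% interval 0.0111 to 0.369, counting error only).

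**Figure D2:**
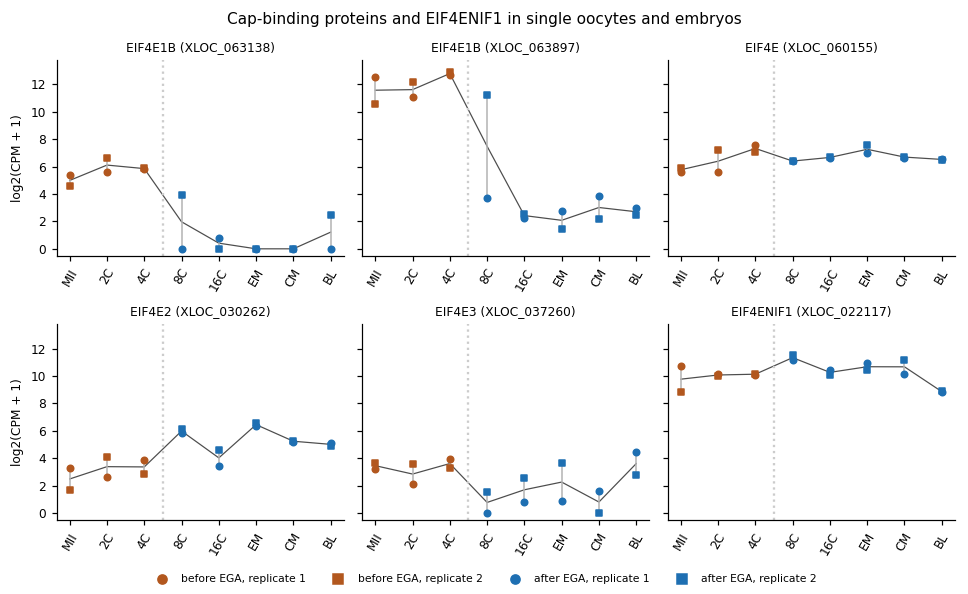
Level of 5 cap-binding loci and of EIF4ENIF1 as log2(CPM + 1) (y axis) by stage (x axis) in each sample. Circles are replicate 1 and squares replicate 2, brown before and blue after EGA, the line joins the stage means and the dotted line marks EGA. EIF4E1B at XLOC_063897 drops after 4C except in 8C replicate 2 (2398 CPM), while EIF4E stays between 47.3 and 193 CPM.

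Ratios within a sample, which do not depend on scaling, were compared between the periods by a two-sided exact permutation test over every split of the 16 samples into 6 and 10, with Benjamini-Hochberg adjustment over 7 ratios. The splits treat the 2 samples of a stage as separate members of a period, although stage fixes the period. The exact p therefore measure the spread between samples and not between stages. Where a name has 2 loci, the one with the higher mean was used. The log2 ratio of EIF4E1B to EIF4E reads averaged 5.51 before EGA and -3.29 after it, a difference of -8.81 (exact p 0.00025, adjusted p 0.000874). It was positive in 6 of 6 samples before EGA and in 1 of 10 after it, namely 8C replicate 2 (4.82), and the difference was -9.71 without that library. EIF4E2 gained on EIF4E by 2.18 (exact p 0.0005, adjusted p 0.00117). EIF4E3 lost ground against EIF4E, with a difference of -1.99 (exact p 0.0234, adjusted p 0.0272). This last call was lost without MII replicate 1 (adjusted p 0.0583) and without MII replicate 2 (0.0614), and its adjusted p was 0.0567 with both 8C samples left out.

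Of EIF4ENIF1, EIF4EBP2 and EIF4EBP3, whose products bind eIF4E, EIF4EBP3 passed the test at EGA. EIF4ENIF1, known as 4E-T, holds eIF4E in ribonucleoprotein particles where mRNA is stored. Before EGA it ranged from 455 CPM in MII replicate 2 to 1674 CPM in MII replicate 1, with a median of 1123 CPM. After EGA it had 2288 and 2953 CPM in 8C, between 1096 and 2317 CPM in 16C, EM and CM, and 455 and 476 CPM in BL. The 8C samples were among the 3 highest of all and the BL samples as low as the lowest oocyte. The log2 change at EGA was -0.11 ± 0.47 (adjusted p 0.844), with the sign turned under TMM factors (0.01) and total reads (0.37), and that from 8C to BL was -2.80 ± 0.64 (adjusted p 0.0129). The latter was lost without 8C replicate 2, BL replicate 1 or BL replicate 2 (adjusted p 0.0503, 0.0787 and 0.0941; 0.00031 to 0.138 over all alternatives).

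EIF4EBP1, EIF4EBP2 and EIF4EBP3 keep eIF4G off eIF4E until mTOR phosphorylates them. EIF4EBP3 had 0 to 5.53 CPM before EGA and 1.92 to 25.3 CPM after it, and it rose by 2.11 ± 0.54 (adjusted p 0.00172). EIF4EBP2 had 20.7 to 38.1 CPM before and 26.4 to 86.9 CPM after EGA, with a change of 0.73 ± 0.34 (adjusted p 0.0683). It passed the test in 6 of 26 alternatives, among them TMM factors and total reads. EIF4EBP1 was at 0 before EGA and had 8 reads in all, on 4 samples after it.

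Of the scaffold proteins only EIF4G1 passed the test at EGA. EIF4G1, the main scaffold of eIF4F, ranged from 0.438 to 4.66 CPM before EGA and from 6.58 to 30.5 CPM after it. The periods did not overlap, and the change was 2.59 ± 0.43 (adjusted p 2.3e-05). EIF4G2, which has no eIF4E-binding site and serves cap-independent initiation, ranged from 55.6 to 113 CPM before and from 58.2 to 260.3 CPM after EGA (0.15 ± 0.30, adjusted p 0.668). EIF4G3, a close relative of EIF4G1, ranged from 5.70 to 40.8 CPM before and from 5.77 to 69.7 CPM after EGA (0.11 ± 0.48, adjusted p 0.846). Within samples, the log2 ratio of EIF4G2 to EIF4G1 reads averaged 5.84 before and 3.02 after EGA, a difference of -2.82 (exact p 0.000125, the smallest that the splits can give, adjusted p 0.000874). No sample after EGA reached the lowest value before it. The ratio of EIF4G3 to EIF4G1 averaged 3.83 before and 0.98 after EGA (exact p 0.00212, adjusted p 0.00315), with the lowest value in 8C replicate 2 (-2.08) and overlap between the periods. Before EGA, EIF4G1 had only 2 and 1 reads in MII, 7 and 2 in 2C, and 3 and 1 in 4C. Both ratios rest on this denominator, mostly at or under the floor of 3 reads, and are not independent of the rise of EIF4G1.

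The helicases EIF4A1 and EIF4A2 did not pass the test at EGA. EIF4A1 ranged from 286 to 757 CPM before and from 241 to 1053 CPM after it (-0.69 ± 0.38, adjusted p 0.115; 2 of 26 alternatives called it lower, one of them without 4C replicate 2). EIF4A2 ranged from 113 to 494 CPM and from 189 to 908 CPM (0.22 ± 0.43, adjusted p 0.656), with both 16C samples highest at 794 and 908 CPM. Their log2 ratio, EIF4A2 to EIF4A1, differed by 0.92 between the periods (exact p 0.171, adjusted p 0.171). EIF4A3, a helicase of the exon junction complex rather than of eIF4F, had 10.2 to 40.6 CPM before and 21.6 to 203 CPM after EGA. Its change was 0.93 ± 0.38 (adjusted p 0.0334). That call was lost without both 8C samples and without any one of MII replicate 1, MII replicate 2, 2C replicate 2, 4C replicate 2, EM replicate 2, CM replicate 1 or CM replicate 2 (adjusted p up to 0.0684).

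EIF4B, which stimulates the helicase, was higher in 4C than in MII and higher after EGA than before it. It stood at 0.443 and 0.438 CPM in MII, which is 2 reads in all, at 8.65 and 16.0 CPM in 2C and at 25.7 and 11.7 CPM in 4C. After EGA it ranged from 24.7 CPM in 8C replicate 1 to 153 CPM in 8C replicate 2. EIF4B rose by 3.34 ± 0.56 at EGA (adjusted p 2.2e-05). The ratio of 4C to MII reads was 41.4 (95% interval 10.9 to 351, counting error only), with an adjusted p of 0.00966 for the step, a call lost without MII replicate 2 or either 4C sample (adjusted p up to 0.111).

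The 13 loci of eIF3, the complex that binds the small subunit and helps to recruit mRNA, did not move alike at EGA. Of these, 8 were called higher and 2 lower, against 36.9% and 29.9% of all loci tested. EIF3CL, EIF3D, EIF3F, EIF3G, EIF3H, EIF3I, EIF3J and EIF3K rose, EIF3A and EIF3M fell, and EIF3B, EIF3E and EIF3L did not pass the test. The sum over all 13 loci was 2058 and 1796 CPM in MII and between 7307 and 9118 CPM in 2C and 4C, against 1298 to 4431 CPM after EGA. The 11 loci other than those that fell summed to 296 ± 61.7 CPM (SD, n = 6) before EGA and to 1010.3 ± 267 CPM (SD, n = 10) after it. They were chosen by their change, which favours a higher sum after EGA.

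EIF3A encodes the largest subunit, a backbone of the complex. It had 1406 and 884 CPM in MII, 7381 and 7617 CPM in 2C and 6574 and 8362 CPM in 4C. It then had 2094 and 3235 CPM in 8C, 1854 and 1744 CPM in 16C, 1201 and 1636 CPM in EM, 1243 and 1357 CPM in CM, and 238 and 170.3 CPM in BL. The 2C and 4C samples were the 4 highest of all and the BL samples the lowest, and the MII samples lay within the range of the samples after EGA. EIF3A was called in every step, by 1.97 ± 0.52 from MII to 4C (adjusted p 0.0313), by -1.52 ± 0.52 from 4C to 8C (adjusted p 0.0330), by -4.01 ± 0.52 from 8C to BL (adjusted p 0.00035) and by -2.31 ± 0.62 at EGA (adjusted p 0.00242). The rise to 4C was lost without any one of the MII and 4C samples and with edgeR (adjusted p up to 0.202), and the fall to 8C without either 4C sample or 8C replicate 1 and with TMM factors and edgeR (adjusted p up to 0.169). With the compared stages fitted alone, the calls of EIF3A between stages were all lost. For the fall from 8C to BL this was the only loss (adjusted p 0.138).

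EIF3A took 68.3% and 49.2% of the reads on eIF3 loci in MII and between 88.8% and 91.7% in 2C and 4C. The share was 72.8% and 73.0% in 8C, 71.9% and 62.0% in 16C, between 47.4% and 58.3% in EM and CM, and 13.7% and 13.1% in BL. Replicates of 2C, 4C, 8C, EM and BL lay within 3 percentage points of each other, while those of MII, 16C and CM were further apart.

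EIF3M, a subunit of the eIF3 core, had 351 to 641 CPM (median 504) before EGA and 49.5 to 265 CPM (median 135) after it. The periods did not overlap, with the 8C samples at 49.5 and 128 CPM. EIF3M fell by 2.34 ± 0.33 at EGA (adjusted p 2.3e-06) and by 2.66 ± 0.56 from 4C to 8C (adjusted p 0.00245).

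Several of the rising subunits had few or no reads in the oocyte, although EIF3H had 26.6 and 5.26 CPM and EIF3K 1.33 and 14.9 CPM in MII. EIF3D, which can itself bind the cap of some mRNAs, was at 0 in both MII samples, at 4.66 and 5.62 CPM in 2C and at 6.25 and 3.07 CPM in 4C. In 8C it had 86.6 and 114 CPM, and no sample after EGA was below 34.8 CPM. The change at EGA was 4.38 ± 0.50 (adjusted p 1.7e-07) and that from 4C to 8C 4.27 ± 0.58 (adjusted p 0.00012). The 4C level was at least 3.51-fold higher than the floor of 3 reads per MII library. EIF3G, an RNA-binding subunit, had 0 to 5.32 CPM before EGA and 17.0 to 109 CPM after it, a change of 4.79 ± 0.48 (adjusted p 2.5e-08). A single read lay on EIF3G in the 4C samples and 130 in the 8C samples, a ratio of 216 per total reads (95% interval 38.1 to 8589, counting error only).

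EIF3I ranged from 0 to 13.9 CPM before EGA and from 37.8 CPM in 16C to 249 CPM in BL after it, and it rose by 3.88 ± 0.55 (adjusted p 3.2e-06). EIF3F (3.45 ± 0.46, adjusted p 1.4e-06), EIF3J (3.39 ± 0.43, adjusted p 7.1e-07), EIF3K (2.80 ± 0.43, adjusted p 7.2e-06) and EIF3H (2.72 ± 0.35, adjusted p 7.4e-07) also rose with no overlap between the periods. Before EGA these 4 ranged from 0 CPM (EIF3F) to 36.1 CPM (EIF3J), and after it from 11.5 CPM (EIF3F) to 322 CPM (EIF3J). EIF3CL rose by 1.89 ± 0.48 (adjusted p 0.00173), with overlap, from 1.31 to 19.0 CPM to 13.9 to 57.9 CPM. Its name marks a near copy of EIF3C, so its reads may be shared with that gene.

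EIF3I had 3 reads in MII and 33 in 4C, a ratio of 16.3 (95% interval 5.11 to 82.9, counting error only, adjusted p of the step 0.0261). EIF3J, a loosely bound subunit, had 3.55 and 1.75 CPM in MII and 25.7 and 25.2 CPM in 4C (2.39 ± 0.59, adjusted p 0.0242). Both calls were lost without either 4C sample, that of EIF3I also without MII replicate 1 and that of EIF3J without MII replicate 2 (adjusted p up to 0.202 and 0.158). Both were lost with edgeR and with these stages alone, and that of EIF3I also with a pseudocount of 5. EIF3D was called for the same step (adjusted p 0.0133) and lost without MII replicate 2 or either 4C sample and with a pseudocount of 5 (adjusted p up to 0.131).

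EIF3L, EIF3E and EIF3B overlapped between the periods. EIF3L had 129 and 141 CPM in MII, 194 and 136 CPM in 2C, 79.9 and 49.2 CPM in 4C and between 64.2 and 265 CPM after EGA. It fell by 1.86 ± 0.50 from MII to 4C (adjusted p 0.0329), a call lost without any one of the MII and 4C samples and under total reads, edgeR or these stages alone (adjusted p up to 0.213). EIF3E had 60.6 to 106 CPM before and 58.2 to 159 CPM after EGA (-0.21 ± 0.32, adjusted p 0.571, and 0.27 under scaling by total reads). EIF3B had 9.83 to 36.6 CPM and 10.8 to 68.1 CPM (0.07 ± 0.43, adjusted p 0.888).

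**Figure D3:**
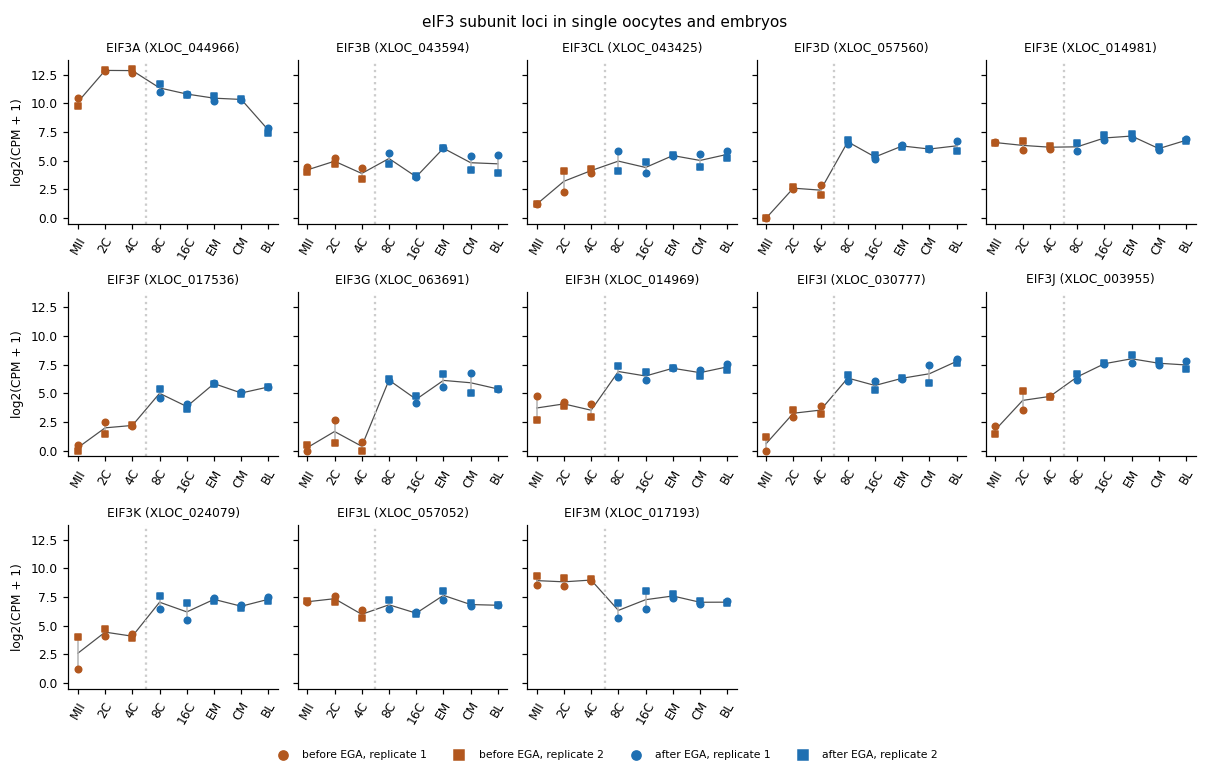
Level of the 13 eIF3 loci as log2(CPM + 1) (y axis) by stage (x axis) in each sample, with symbols, lines and the dotted EGA line as in the plot of cap-binding proteins. EIF3A peaks in 2C and 4C and is lowest in BL (238 and 170.3 CPM), EIF3M is lower after EGA, and 8 other loci are higher.

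The subunits of eIF2 did not move alike. EIF2S2, the beta subunit, had 8.33 to 53.5 CPM (median 29.9) before EGA and 137 to 370.4 CPM (median 211) after it. No sample after EGA overlapped those before it, and the change was 2.69 ± 0.33 (adjusted p 4.1e-07). EIF2S1, the alpha subunit that the kinases phosphorylate, had 5.76 to 44.9 CPM (median 23.8) before and 37.1 to 175 CPM (median 92.8) after EGA, with 16C replicate 1 within the earlier range. It rose by 1.85 ± 0.35 (adjusted p 0.00011).

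EIF2S3, the gamma subunit that binds GTP and the initiator tRNA, has 2 loci. At XLOC_075459 it ranged from 352 to 1003 CPM before and from 329 to 2154 CPM after EGA (-0.36 ± 0.44, adjusted p 0.471, and 0.12 under scaling by total reads). At XLOC_075814 it ranged from 28.5 to 106 CPM and from 56.9 to 395 CPM (0.43 ± 0.40, adjusted p 0.349). The log2 ratio of EIF2S3 to EIF2S1 reads averaged 5.23 before and 2.99 after EGA, a difference of -2.24 (exact p 0.00225, adjusted p 0.00315). The ratio was highest in the MII samples (6.96 and 6.37) and overlapped between the periods through the 16C samples (4.86 and 4.26) and CM replicate 2 (3.97).

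All 5 subunits of eIF2B, the exchange factor of eIF2, rose at EGA, a call given to 36.9% of all loci tested. EIF2B5, the catalytic subunit, was at 0 in 4 of 6 samples before EGA, with 3 reads in all, and had 8.50 to 79.8 CPM (median 23.5) after it. The ratio of reads after to before EGA was 142 per total reads (95% interval 48.3 to 693, counting error only), and the adjusted p of the test between samples was 2.5e-08, or 7.4e-08 over all loci with reads. EIF2B5 and the other eIF2B loci passed the filter only through the samples after EGA. So did EIF2D, EIF3D, EIF3F, EIF3G, EIF4EBP3, EIF4G1 and EIF6, which never reached its limit of 7.42 CPM before EGA. The calls of all these loci at EGA are therefore a description. The levels in 8C, 48.3 and 79.8 CPM, stood beside 1 read in the 4C samples, and the adjusted p of that step was 6e-05. EIF2B2 had 0 to 2.78 CPM before and 9.62 to 52.8 CPM after EGA (3.56 ± 0.46, adjusted p 8.3e-07), without overlap.

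EIF2B1, one of the regulatory subunits that bind phosphorylated eIF2, had 0 to 8.33 CPM before EGA, 35.9 and 73.1 CPM in 8C and 8.84 and 7.34 CPM in BL. It rose at EGA by 2.58 ± 0.58 (adjusted p 0.00058), rose from 4C to 8C (adjusted p 0.00458, lost without 4C replicate 2) and fell by 2.85 ± 0.77 from 8C to BL (adjusted p 0.0287, lost without 8C replicate 2 or either BL sample and with edgeR). Over the alternatives these adjusted p reached 0.0695 and 0.156. Both calls of EIF2B1 between stages were also lost with the compared stages alone. EIF2B3 had 0 to 12.4 CPM before and 9.87 to 44.2 CPM after EGA and rose by 2.43 ± 0.59 (adjusted p 0.00108).

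EIF2B4 was at 0 in both MII samples, at 3.99 and 5.33 CPM in 2C and at 11.1 and 10.4 CPM in 4C. Its 4C level was at least 8.11-fold higher than the floor of 3 reads per MII library (adjusted p 0.00593, up to 0.0757 without a 4C sample). After EGA it ranged from 3.86 to 32.3 CPM, with both 16C samples under the 4C level. EIF2B4 rose by 2.02 ± 0.63 at EGA (adjusted p 0.00765), a call that edgeR did not give (adjusted p 0.0678, the highest of a range from 6.0e-05).

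**Figure D4:**
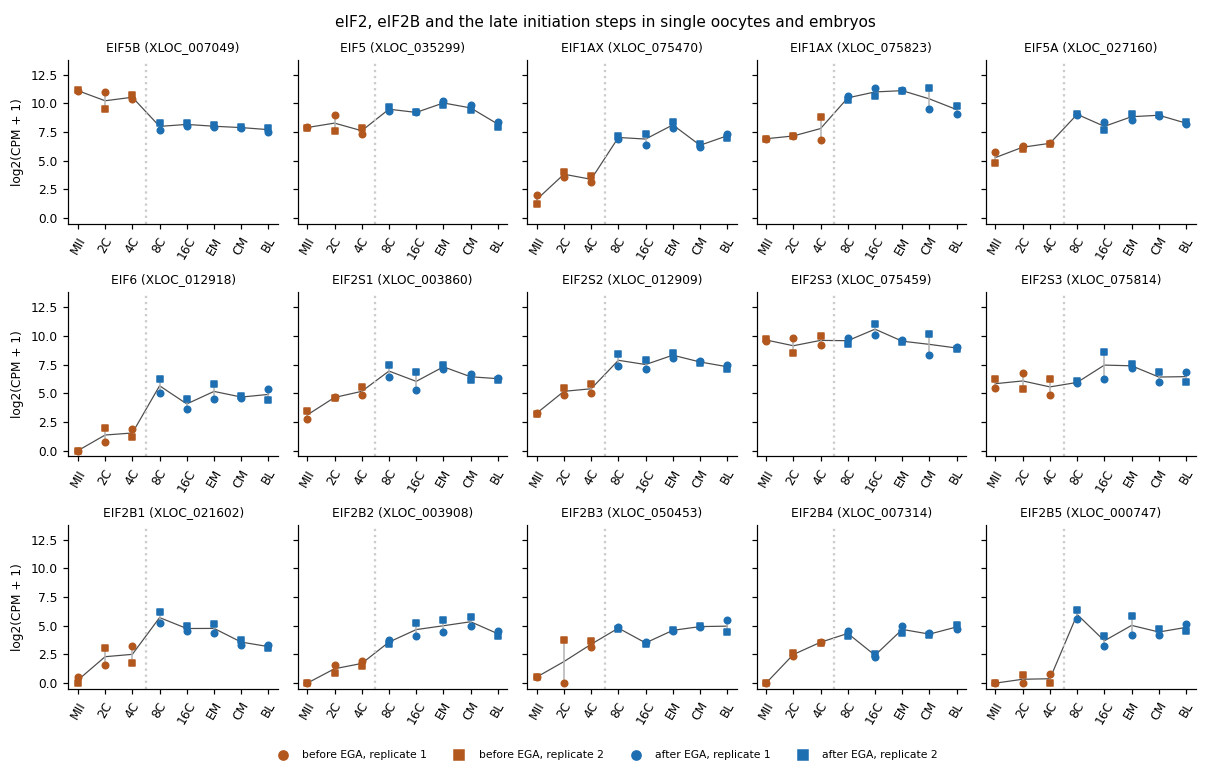
Level of the eIF2 and eIF2B loci and of EIF5B, EIF5, EIF1AX, EIF5A and EIF6 as log2(CPM + 1) (y axis) by stage (x axis) in each sample, with symbols, lines and the dotted EGA line as in the plot of cap-binding proteins. EIF5B is lower after EGA (186 to 313 CPM, from 712 to 2263 CPM), whereas the EIF1AX, EIF5A, EIF6 and eIF2B loci are higher.

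The kinases of eIF2 gave no call at EGA. EIF2AK4 (GCN2, which senses uncharged tRNA) had 574 to 926 CPM before and 643 to 2105 CPM after EGA (0.21 ± 0.36, adjusted p 0.609). EIF2AK1 (HRI, which senses heme) had 16.2 to 47.9 CPM and 11.7 to 86.4 CPM (-0.07 ± 0.43, adjusted p 0.886, with the sign turned under TMM factors and total reads). EIF2AK2 (PKR, which senses double-stranded RNA) had 13.2 to 46.8 CPM and 7.42 to 51.4 CPM (-0.57 ± 0.46, adjusted p 0.272). EIF2AK3 (PERK, the kinase of endoplasmic reticulum stress) was below the filter of this comparison, with 2.37 to 16.0 CPM and 0 to 26.4 CPM.

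EIF2A and EIF2D can deliver initiator tRNA without eIF2. EIF2D rose at EGA by 1.55 ± 0.44 (adjusted p 0.00400), from 0 to 4.30 CPM to 3.86 to 12.3 CPM. EIF2A stood at 35.5 and 49.5 CPM in MII, 47.3 and 22.2 CPM in 2C, 14.6 and 17.2 CPM in 4C and 24.7 to 118 CPM after EGA. It fell by 2.11 ± 0.58 from MII to 4C (adjusted p 0.0362), a call lost without MII replicate 2 or either 4C sample and under total reads and edgeR (adjusted p up to 0.215). At EGA it gave 0.47 ± 0.40 (adjusted p 0.305, passing only under total reads).

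Of the factors of start codon selection, both EIF1AX loci and EIF5 rose at EGA. EIF1AX, which helps the scanning ribosome to recognise the start codon, had 72.8 to 339 CPM at XLOC_075470 after EGA, against 1.31 to 15.4 CPM before it. At XLOC_075823 it had 553 to 2654 CPM after and 110.4 to 449 CPM before EGA, with 4C replicate 2 highest of the earlier samples. Neither locus overlapped between the periods, and the changes were 3.81 ± 0.36 (adjusted p 1.3e-08) and 2.71 ± 0.43 (adjusted p 1.2e-05). From 4C to 8C the first locus rose by 3.67 ± 0.52 (adjusted p 0.00017), with 7.64 and 11.7 CPM in 4C and 115 and 146 CPM in 8C. EIF1AX lies on the X chromosome, and the sexes of the embryos are not given in the sources used here. The EIF2S3 loci (XLOC_075459 and XLOC_075814) are numbered close to the EIF1AX loci. The same limit may hold for EIF2S3 and its ratio to EIF2S1.

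EIF5, which triggers GTP hydrolysis by eIF2, had 164 to 507 CPM before EGA, 635 and 816 CPM in 8C, 1200.5 and 916 CPM in EM and 335 and 252 CPM in BL. It rose from 4C to 8C by 1.87 ± 0.54 (adjusted p 0.0144; lost without 4C replicate 1, adjusted p 0.108, the highest over the alternatives). At EGA it rose by 0.89 ± 0.38 (adjusted p 0.0404), a call lost in 12 of 26 alternatives (adjusted p up to 0.106). These were edgeR, no filter, leaving out both 8C samples, and leaving out any one of 2C replicate 2, 4C replicates 1 and 2, 8C replicates 1 and 2, 16C replicate 1, EM replicate 1 and CM replicates 1 and 2.

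EIF1, which keeps the scanning ribosome from stopping at wrong codons, had 74.3 to 180.1 CPM before and 59.4 to 214 CPM after EGA (-0.15 ± 0.35, adjusted p 0.707, and 0.33 under scaling by total reads). EIF1B, a close relative of EIF1, had 3.55 and 4.38 CPM in MII and 38.2 and 43.0 CPM in 4C. It rose by 2.47 ± 0.64 over this step (adjusted p 0.0286, lost without any one of the MII and 4C samples, up to 0.149), and at EGA gave 0.47 ± 0.45 (adjusted p 0.367). EIF1AD had at most 18 reads in a sample and was below the filter at EGA, with 0 to 1.48 CPM before and 0 to 10.7 CPM after it.

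The factors of subunit joining moved in opposite directions. EIF5B, the GTPase that joins the large to the small subunit, had 2148 and 2263 CPM in MII, 2019 and 712 CPM in 2C and 1308 and 1679 CPM in 4C. After EGA it had 208 and 311 CPM in 8C and between 186 and 313 CPM in all 10 samples. The periods did not overlap, and EIF5B fell by 3.15 ± 0.36 at EGA (adjusted p 1.9e-07), and from 4C to 8C it fell by 2.55 ± 0.53 (adjusted p 0.00211). In 8C replicate 2, the library with oocyte transcripts, EIF5B had 311 CPM and EIF3M 128 CPM, within the range of the other samples after EGA, whereas EIF3A (3235 CPM) and both EIF4E1B loci were higher there than in any other sample after EGA.

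EIF6, which keeps free large subunits from joining early, was at 0 in both MII samples, at 0.666 and 2.96 CPM in 2C and at 2.78 and 1.23 CPM in 4C. It had 32.2 and 75.0 CPM in 8C and no less than 11.6 CPM after EGA. The change at EGA was 3.90 ± 0.47 (adjusted p 3.2e-07) and that from 4C to 8C 4.23 ± 0.74 (adjusted p 0.00068).

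EIF5A, the hypusine-bearing factor that helps the ribosome past difficult peptide bonds, had 26.3 to 95.1 CPM (median 72.0) before EGA and 201 to 542 CPM (median 432) after it, with 515 and 542 CPM in 8C. The periods did not overlap. EIF5A rose by 2.16 ± 0.32 at EGA (adjusted p 6.2e-06) and by 2.52 ± 0.51 from 4C to 8C (adjusted p 0.00178).

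The name rule also takes in 4 argonautes, which carry small RNAs and are no initiation factors, under the older names EIF2C1 to EIF2C4. EIF2C2 had 67.4 to 91.2 CPM before and 40.3 to 119 CPM after EGA (-0.56 ± 0.31, adjusted p 0.113, called lower only in the model of 8 stages). EIF2C1, EIF2C3 and EIF2C4 held 8, 3 and 21 reads in all and were below the filter. EIF2C4 had no read before EGA.

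**Figure D5:**
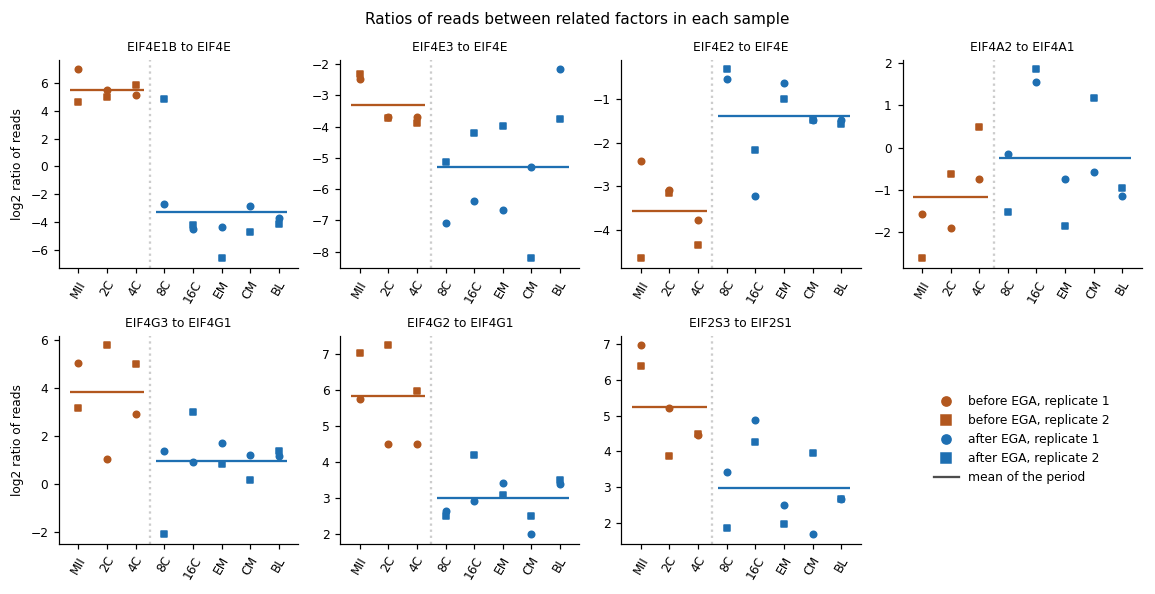
Log2 ratio of reads of related factors (y axis) by stage (x axis) in each sample, with circles for replicate 1 and squares for replicate 2, brown before and blue after EGA, horizontal lines for the mean of each period and the dotted line for EGA. EIF4E1B to EIF4E falls from a mean of 5.51 to -3.29 with 8C replicate 2 at 4.82, and 3 other ratios (EIF4G3 and EIF4G2 to EIF4G1, EIF2S3 to EIF2S1) have lower means after EGA with adjusted p of at most 0.00315.

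A list of 42 genes that act with the initiation factors, such as poly(A)-binding proteins, their regulators, storage proteins of the oocyte and the mTOR pathway, was examined beside them. Of its 40 loci, 28 passed the filter, and 10 (35.7%) were higher and 10 (35.7%) lower after EGA, near the 36.9% and 29.9% of all loci. The falls were led by CPEB1 and CPEB4, which control polyadenylation of stored mRNA. CPEB1 went from 29.8 to 196 CPM to 0 to 32.7 CPM (-6.13 ± 0.68, adjusted p 1.2e-07) and CPEB4 from 51.0 to 135 CPM to 0 to 38.5 CPM (-4.28 ± 0.60, adjusted p 2.4e-06). The highest levels after EGA, 32.7 CPM of CPEB1 and 38.5 CPM of CPEB4, were those of 8C replicate 2, against 0 and 1.24 CPM in 8C replicate 1, and the former was the only overlap of CPEB1 with the samples before EGA.

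PAIP1, which links poly(A)-binding protein to eIF4A and eIF3, fell by 3.42 ± 0.34 (adjusted p 2.3e-08), YBX2, which packs stored mRNA, by 2.88 ± 0.51 (adjusted p 4.7e-05), and NCBP1, the large subunit of the nuclear cap-binding complex, by 2.41 ± 0.39 (adjusted p 1.6e-05). The rises were led by RPS6, a small-subunit ribosomal protein (4.24 ± 0.50, adjusted p 2.2e-07), and LARP1, which controls mRNAs of the translation machinery (3.36 ± 0.54, adjusted p 1.4e-05). PAIP2, an inhibitor of poly(A)-binding protein, rose by 2.22 ± 0.43 (adjusted p 0.00011), DDX6, a helicase of mRNA storage, by 1.59 ± 0.47 (adjusted p 0.00526) and TSC2, an inhibitor of mTOR signalling, by 1.41 ± 0.59 (adjusted p 0.0395). YBX2, PAIP2, DDX6 and TSC2 overlapped between the periods. TSC2 had 0.886 to 12.3 CPM before and 3.29 to 74.8 CPM after EGA. The partner list was not checked under the alternatives. PABPC1, PABPN1L and MIF4GD were not found by name among the loci, and DDX3X, DENR and PAIP2B were listed at 0.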

How the data were processed

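Each sample was a single oocyte or embryo. Per the labels, RNA was amplified in 2 rounds and sequenced after the SOLiD total RNA protocol, and the submitters' processing notes name cutadapt, FastQC, TopHat, Cufflinks and HTSeq. Genome build, versions, strand and the handling of multiply mapped reads are not given in the sources used here. The authors deposited a signal per locus, that is, read counts divided by a size factor per sample. In each sample 100% of the values above 0 equalled a whole number times the lowest one (tolerance 0.02), so whole reads were recovered. CPM were computed from these reads, which were counted per locus without molecular identifiers.

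Differences in the deposited values came from limma 3.58.1 under R 4.3.3, with a trend, on log2(value + 1) over 9670 loci (8 stages) or 6910 loci (6 samples before against 10 after EGA) kept by filterByExpr, at an adjusted p of 0.05. edgeR 4.0.16 and DESeq2 1.42.0 on the recovered reads were alternatives. The fit was tested on simulated data. Ratios of reads, with 0.5 added, were tested by exact permutation (Python 3.11.15, scipy 1.17.1). Of 56 names, 52 matched a symbol and 3 a synonym of an ARS-UCD2.0 gene table. Neither gene lengths nor sequences were used here.

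The loci and lists were chosen with earlier results of these data known. The text accounts for every initiation factor by role and names, of the partner list, the 5 largest rises and falls at EGA that passed the test. Low loci are given as ranges. Nothing says which samples share an animal, and p-values measure the spread between these samples. The tests at EGA count the 2 samples of a stage as separate members of a period. Replicates of a stage differed by more than counting noise. Samples with the same replicate number are different oocytes or embryos, and over 28 pairs of stages their deviations correlated between -0.26 and 0.13, so the numbers were not taken to pair samples. Other alternatives were scalings, pseudocounts of 0.5 and 5, no filter, the replicate number as a block, each sample left out, compared stages alone, and, chosen after seeing the data, both 8C samples left out and summed loci.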

Additional observations from a re-analysis of the deposited data

Results flagged for a closer look

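In 118 groups of samples (6 before or 10 after EGA), 11 held a sample whose distance from the nearest other sample was large for the range of the group by Dixon's criterion, which chance alone exceeds in about 5% of groups. Values are log2(deposited value + 1). Of these, 3 belong to 8C replicate 2, namely EIF4E1B at XLOC_063897 (11.48, nearest sample 4.25), EIF4G3 (2.98) and EIF4EBP3 (1.72), and so does the log2 ratio of EIF4E1B to EIF4E (4.82, next -2.68). The oocyte marker sum was also higher in that library than in the other samples after EGA, and its part in these values was not tested. EIF4ENIF1 (11.77) and EIF3K (1.91) stood apart in MII replicate 1, and EIF2AK4 (11.01) in MII replicate 2, although its 851 CPM there lay within the 574 to 926 CPM of the samples before EGA. EIF3G stood apart in 2C replicate 1 (2.87), EIF1B in BL replicate 1 (4.11), EIF4EBP2 in CM replicate 2 (5.16) and EIF2S3 at XLOC_075814 in 16C replicate 2 (8.60).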

How the results depend on the processing

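No call of an initiation factor locus reversed under any alternative. Calls of the partner list were not checked in this way. The counts at EGA (26 higher, 6 lower) stayed between 24 and 28 and between 6 and 8, with 24 and 6 without both 8C samples. The count with a stage effect (38) stayed between 30 and 38. From MII to 4C, 7 higher became 12 with total reads, 12 with a pseudocount of 0.5, 4 with edgeR and 2 with these stages alone, and 0 to 10 with 1 sample left out. The 2 lower became 0 with total reads, edgeR or these stages alone, and 0 to 2 with 1 sample left out. From 4C to 8C, 19 higher became 10 with these stages alone and 12 to 19 with 1 sample left out, and 6 lower became 3 with edgeR, 3 with DESeq2, 2 with these stages alone and 2 to 6 with 1 sample left out. From 8C to BL, 4 lower became 0 with these stages alone and 1 to 4 with 1 sample left out. The ratio of EIF4E3 to EIF4E was -1.78 (adjusted p 0.0567) with 8C left out and -2.34 to -1.66 with 1 sample left out. The cause was not tested, beyond fewer samples in those fits. With the replicate number as a block, 35 loci had a stage effect, and the counts of the other comparisons were 26 and 6 at EGA, 7 and 2, 19 and 6, and 0 and 4, in the order higher and lower. The numbers mark different embryos (1 of 28 stage pairs correlated above 0.1). The floor of 3 reads, 0.888 to 4.94 CPM, lies above the levels of several loci before EGA, where a level of 0 means not detectable at this depth. This does not hold for EIF4H, whose neighbouring loci were at 0 too.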
